A study of Mus musculus with 16 samples.

Results

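The 10 genes described here make up the core of the mammalian circadian clock and its first outputs: the activators Arntl (also called Bmal1) and Clock, the repressors Per1, Per2, Per3, Cry1 and Cry2, the nuclear receptors Nr1d1 and Nr1d2, and the output factor Dbp. They were taken by gene symbol from a bead-array table of mouse dorsal skin, in which 17 of 25697 probes carry one of these symbols. Of these probes, 11 were detected well enough to be kept, and they measured 8 of the 10 genes, among 10232 genes tested. The Per3 and Cry1 probes lay at background.

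Back skin of mice aged 15 days (strain C57/BL6;129Ola mixed) was profiled on 4 arrays for each of 4 groups. Shp2lof mice carried a floxed allele of Shp2 (gene Ptpn11), a phosphatase that passes receptor signals to Ras and ERK, together with the Krox20-cre driver. Mek1gof mice carried the Mek1fstop/+ allele, whose active Mek1 (gene Map2k1), the kinase that phosphorylates ERK, is switched on by the same driver, and Double mice carried both changes. The labels name the fourth group only as control and do not give its alleles. Krox20-cre expresses Cre from the Egr2 (Krox20) gene, which is used by part of the hair follicle and by Schwann cells, so whole skin mixes recombined with unrecombined cells. Nothing in the labels shows that a group's samples are different animals, so p-values measure the spread between these samples. The labels also give no time of day for the dissection.

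In the clock, the ARNTL and CLOCK proteins pair and bind E-boxes in the promoters of the Per and Cry genes, whose proteins then return to block that pair. The same pair turns on Nr1d1 and Nr1d2, which repress Arntl through ROR elements, and Dbp, which activates genes through D-boxes. Messenger RNA of Per, Dbp and Nr1d genes therefore moves over the day out of step with that of Arntl, in skin as in other tissues, and Per1 is also induced directly by glucocorticoids and by cAMP signalling.

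The promoter windows below are printed because Per1 and Nr1d2 are the members on which the results turn. Each holds the 250 bases before an annotated start, from RefSeq on mouse build GRCm38.p6, with the motifs that were found in capitals. The first Per1 window (chr11:69098699-69098948, plus strand) holds an E-box, CACGTG, and the core of a ROR element, AGGTCA, here read from the other strand as TGACCT. The second Per1 window (chr11:69099902-69100151, plus strand), before a later start of the gene, holds a shortened cAMP response element, TGACGTC. The annotated span of Per1 begins upstream of both windows, at chr11:69095108. First start below therefore means the start after the first supplied window, not the first start of the gene. The Nr1d2 window (chr14:18239107-18239356, minus strand) holds the ROR element core.
Per1, first start: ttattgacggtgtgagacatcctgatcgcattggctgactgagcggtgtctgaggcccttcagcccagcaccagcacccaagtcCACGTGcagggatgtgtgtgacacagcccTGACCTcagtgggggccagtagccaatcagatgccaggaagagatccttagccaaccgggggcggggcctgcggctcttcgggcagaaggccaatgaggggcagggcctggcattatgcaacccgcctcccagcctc
Per1, later start: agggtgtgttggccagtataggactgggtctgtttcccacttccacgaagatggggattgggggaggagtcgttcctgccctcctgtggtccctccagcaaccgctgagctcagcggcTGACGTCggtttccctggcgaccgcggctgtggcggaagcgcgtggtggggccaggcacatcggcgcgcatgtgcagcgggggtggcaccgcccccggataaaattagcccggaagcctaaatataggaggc
Nr1d2: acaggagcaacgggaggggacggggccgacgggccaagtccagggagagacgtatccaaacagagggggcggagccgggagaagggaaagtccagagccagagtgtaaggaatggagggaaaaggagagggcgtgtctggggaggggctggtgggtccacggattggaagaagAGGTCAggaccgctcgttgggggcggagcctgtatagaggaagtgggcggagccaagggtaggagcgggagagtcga

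The supplied promoter table held windows for 9 of the 10 genes, 13 windows in all. On either strand, an E-box (CACGTG) was found in 2 of them, those of Cry1 and Per1, against 6.02% of all 32851 windows of the same length. The ROR core (AGGTCA) is common, being present in 14.0% of all windows, and the shortened cAMP element (TGACGTC) is present in 2.78%, partly because every full element TGACGTCA (1.55%) holds it. The Per3 window held the D-box TTATGTAA at 2 places, a motif present in 0.819% of all windows. The E-box variant CACGTT, present in 3.85% of all windows, occurred in the windows of Cry1, Cry2 and Nr1d1. A match describes letters in a window and was not tested as a binding site.

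Signals were background-corrected and quantile-normalized, and levels are on a log2 scale. A gene was called when the Benjamini-Hochberg adjusted p of limma over all 10232 genes was below 0.05. Between 13022 and 13959 probes were detected per array. Ptpn11, the gene deleted by the driver, showed no called difference in whole skin, with 12.74 to 12.90 in Shp2lof (difference -0.05, limma adjusted p = 0.891), 12.85 to 13.15 in Double (0.07, adjusted p = 0.764) and 12.74 to 12.96 in control skin, so its level does not check the labels, nor is it known here whether its probe lies in the floxed part. Of the 7 epidermal markers looked at, 6 were measured (all but Flg), and these were detected on all 16 arrays. Each slide held 2 arrays of every group, with replicates 1 and 2 on the first and 3 and 4 on the second, but the position on a slide goes with the group, so position and group cannot be told apart. On 3 arrays sex-linked genes were atypical: in Shp2lof 4 and Mek1gof 2 both Xist and the Y-linked Eif2s3y were raised (Xist 9.12 and 8.82, Eif2s3y 8.01 and 6.77), and in Double 4 Xist was at 6.96 with Eif2s3y at 4.39. The labels' groups also mixed the sexes unevenly: Eif2s3y was high and Xist low on Shp2lof 1 to 3, Mek1gof 3 and 4, Double 3 and control 1 and 3, and the reverse held on Mek1gof 1, Double 1 and 2 and control 2 and 4. The Per1 and Nr1d2 differences between Double and control skin are also given without these 3 arrays, and those of the other named genes are not.

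Across the comparisons with control, 1 clock gene was called: Per1 was lower in Double skin. None of the 8 measured genes passed in Shp2lof skin, where 2.55% of all genes did, and none in Mek1gof skin, where 0.508% of all genes did. In Double skin 1 of 8 passed, against 3.88% of all genes in either direction and 2.04% in the lower direction, so the members' share rests on a single gene. At an unadjusted p below 0.05 the counts of clock genes were 0 in Shp2lof, 1 in Mek1gof and 2 in Double, where 15.7%, 9.54% and 20.8% of all genes were below that value. The members' median difference from control was -0.06 in Shp2lof, -0.09 in Mek1gof and -0.10 in Double, against 0.02, 0.02 and 0.03 for all genes. In each of these comparisons 7 of 8 differences were negative, counting some that round to 0.00, against 45.9%, 45.4% and 45.6% of all genes, but the 3 share their control arrays and cannot be read as repeats of one another.

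**Figure D1:**
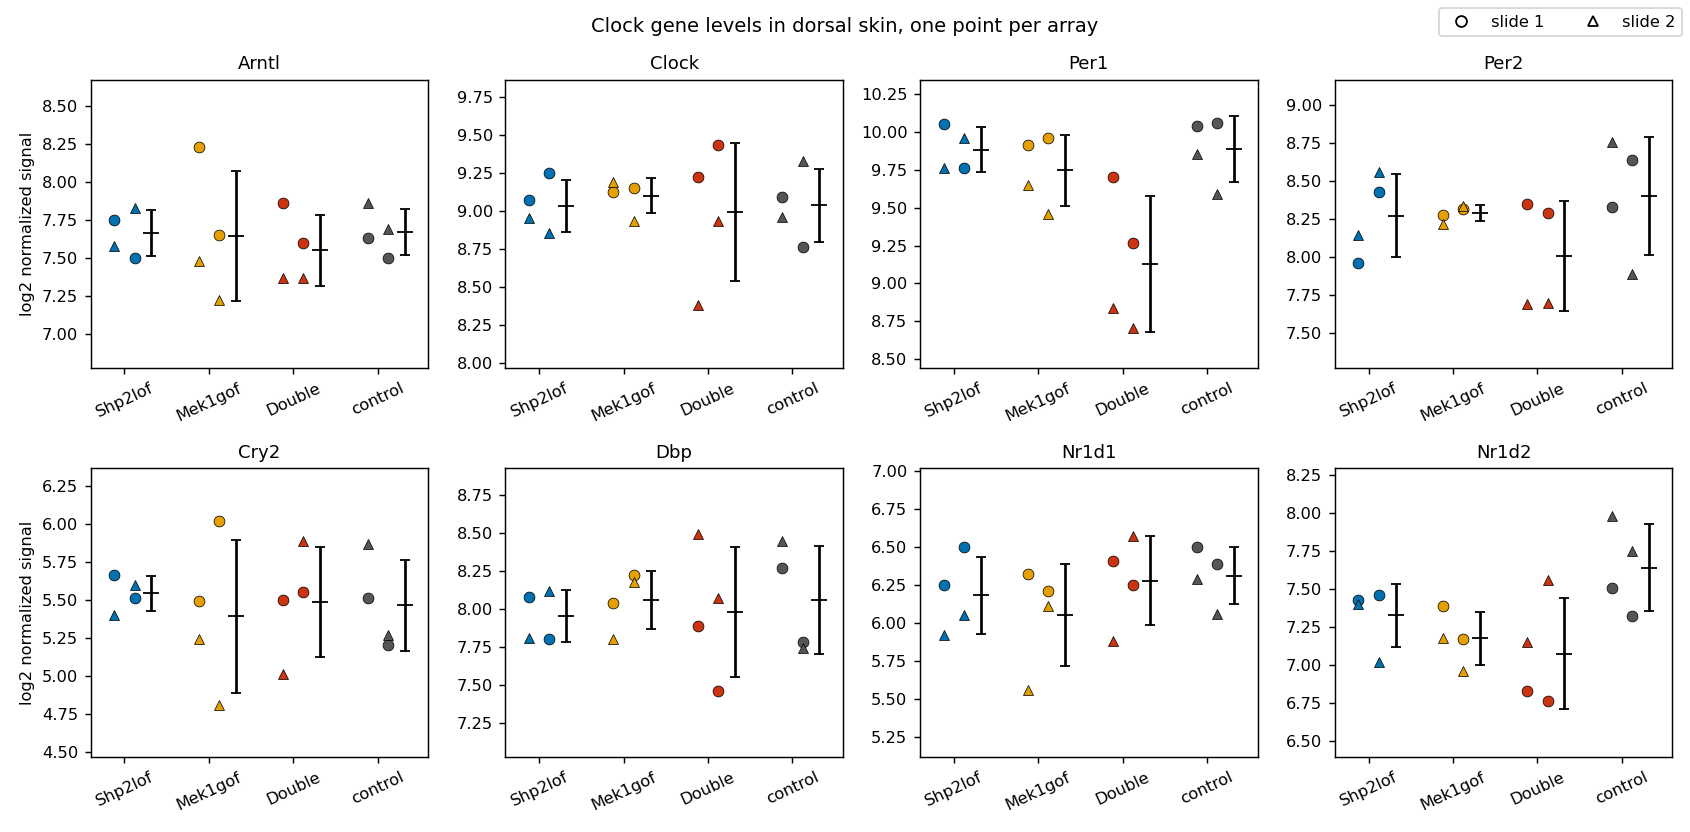
Normalized log2 level of the 8 measured clock genes on every array, in Shp2lof, Mek1gof, Double and control skin, with 1 point per array (circles for the first slide, triangles for the second) and a bar for the mean ± SD of each group (n = 4). Per1 in Double skin (8.71 to 9.70) sits below most other arrays, whereas no pair of groups is fully apart for the other 7 genes.

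**Figure D2:**
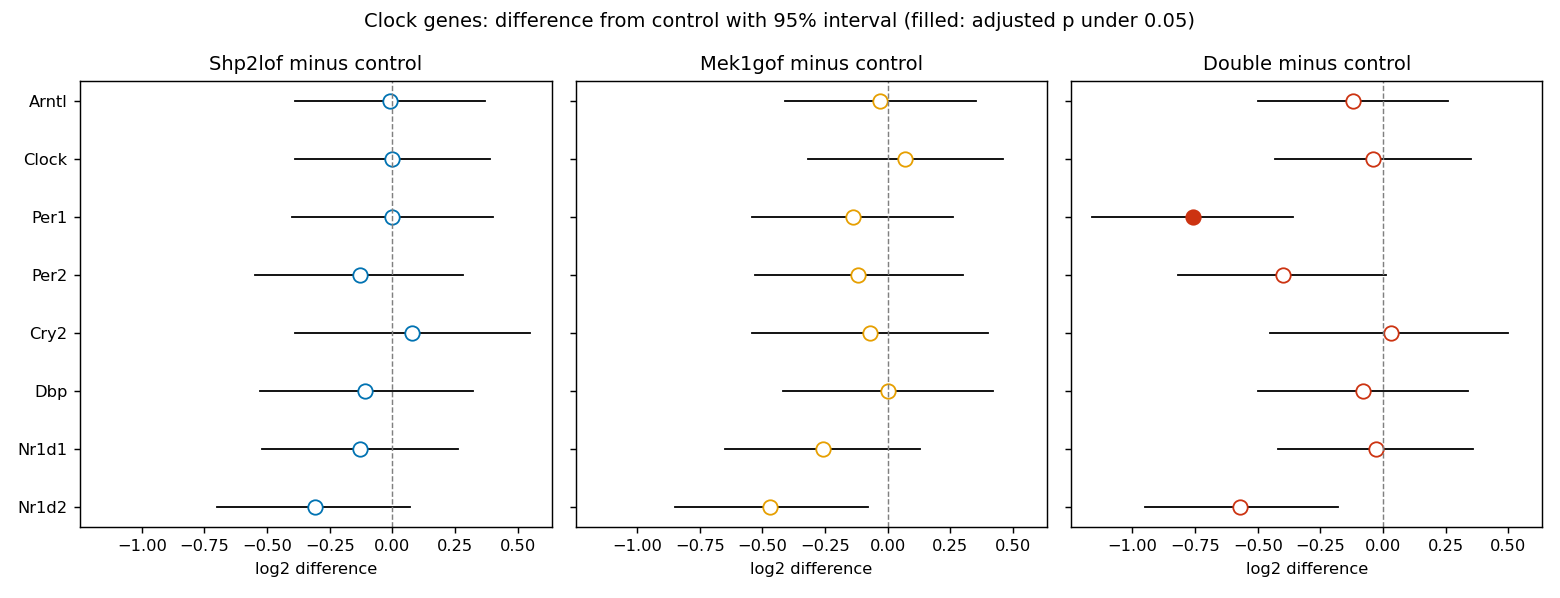
Log2 difference of each mutant group from control for the 8 measured clock genes, with 95% confidence intervals from the limma fit and a filled point where the adjusted p was below 0.05. Only the interval of Per1 in Double skin belongs to a gene with an adjusted p below 0.05, and the intervals of Nr1d2 in Double and Mek1gof skin also lie below 0.

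Arntl, the activator whose own RNA is the usual marker of clock phase, had nearly the same mean in every group. It measured 7.75, 7.50, 7.58 and 7.83 in Shp2lof, 8.23, 7.65, 7.48 and 7.22 in Mek1gof, 7.86, 7.60, 7.37 and 7.37 in Double, and 7.63, 7.50, 7.86 and 7.69 in control skin. The 4 groups overlapped throughout, and Mek1gof held both the highest and the lowest array of all 16. The difference from control was -0.01 in Shp2lof (95% interval -0.39 to 0.37), -0.03 in Mek1gof (-0.41 to 0.35) and -0.12 in Double (-0.50 to 0.26), with limma adjusted p-values of 0.992, 0.986 and 0.745.

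Clock, the DNA-binding partner of ARNTL, likewise showed no called difference. Its level was 9.03 ± 0.171 in Shp2lof, 9.10 ± 0.115 in Mek1gof, 8.99 ± 0.454 in Double and 9.03 ± 0.239 in control skin (SD, n = 4 each). The wide spread in Double came from 1 high and 1 low array, at 9.43 and 8.38, which bracket all 12 arrays of the other groups. The largest difference from control was 0.07, in Mek1gof (95% interval -0.32 to 0.46, limma adjusted p = 0.959). A pair of further Clock probes were detected on 3 arrays and on 0 arrays and were not tested.

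Per1, a repressor of the ARNTL and CLOCK pair that responds rapidly to light, hormones and cAMP, was the member that differed most. Its brighter probe measured 9.70, 9.27, 8.84 and 8.71 in Double skin, against 10.04, 10.06, 9.85 and 9.59 in control skin. The single mutants measured 10.05, 9.76, 9.76 and 9.96 in Shp2lof and 9.91, 9.96, 9.65 and 9.46 in Mek1gof. Of the Double arrays 3 lay below every other array, while Double 1 lay above the lowest control array and the lowest Mek1gof array. Per1 averaged 9.13 ± 0.448 in Double and 9.88 ± 0.217 in control skin (SD, n = 4 each), a log2 difference of -0.76 ± 0.19 (SE, 95% interval -1.16 to -0.36), or 1.69-fold lower, with a limma adjusted p of 0.0332.

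The second Per1 probe moved alike. It measured 8.21, 8.35, 7.74 and 7.23 in Double skin, against 8.79, 8.87, 8.64 and 8.38 in control skin, so here the groups did not overlap, as for 12.5% of all genes in that comparison. In a fit of all 13765 kept probes its difference was -0.79 with a limma adjusted p of 0.0601, and that of the brighter probe was -0.76 with 0.0350, where 3.44% of all probes passed. The lower Per1 in Double skin was found on both slides, at -0.57 on the first and -0.94 on the second. With only the first slide the limma adjusted p was 0.126, with only the second 0.0117.

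**Figure D3:**
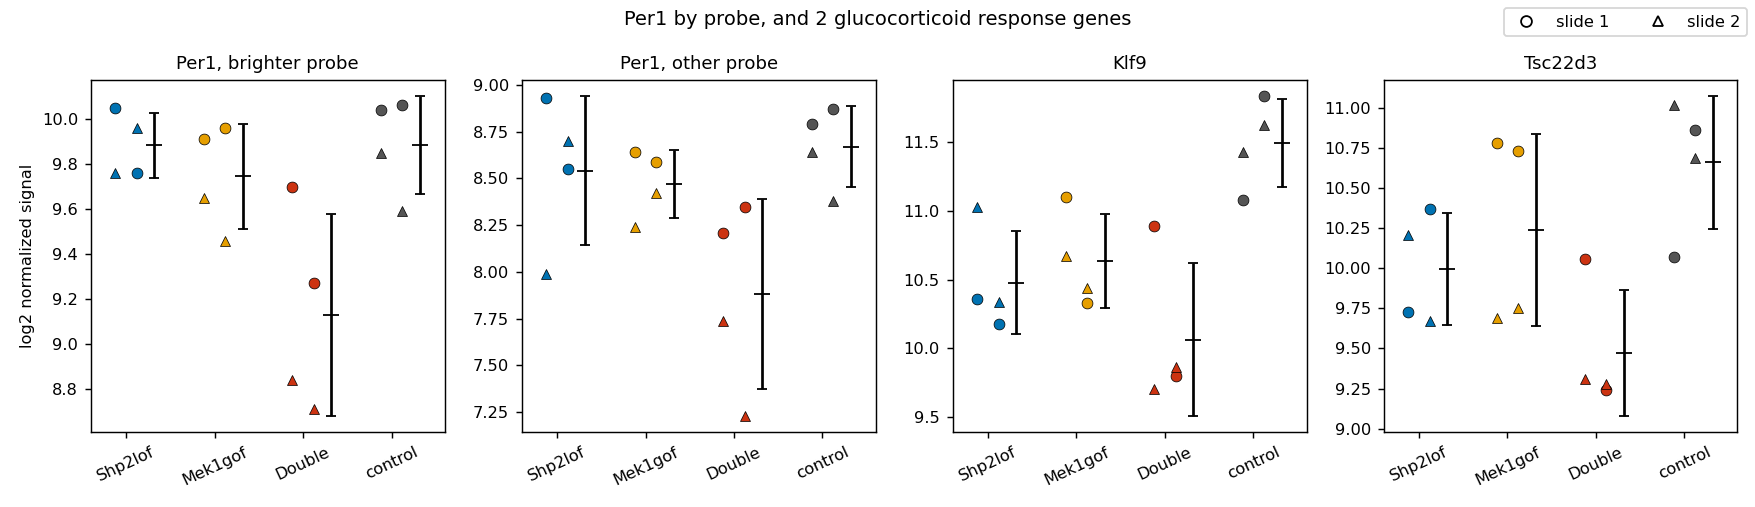
Log2 level of both Per1 probes and of Klf9 and Tsc22d3, a pair of glucocorticoid response genes, on each array, with circles for the first slide, triangles for the second and bars for the mean ± SD (n = 4). The Double arrays of the second slide (8.84 and 8.71 for the brighter probe, 7.74 and 7.23 for the other) are the lowest of all 16 for both Per1 probes. Klf9 in Double (9.70 to 10.89) lies below Klf9 in control skin (11.08 to 11.84), where 12.5% of all genes did not overlap.

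The Per1 call sits close to the threshold: of 33 alternative settings 21 kept it and 12 lost it (limma adjusted p from 0.00641 to 0.296). It was lost on leaving out any one of control 1, 2 or 3 or Double 2, 3 or 4 (limma adjusted p from 0.0581 to 0.104), and without the 3 arrays of atypical sex-linked levels the difference was -0.62 with an adjusted p of 0.107, an alternative chosen after seeing the data. With the Xist level as a covariate, chosen likewise, it was -0.80 with an adjusted p of 0.0197, and the other clock genes remained uncalled. Skeletal muscle markers moved with the group. Of the 7, 6 were called lower in Double than in control skin, where 2.04% of all genes were called lower. These were Acta1, Myh4, Tnnt3, Mylpf, Ckm and Myot, while Myh1 was not called. All 7 were detected on every array, and their summed signal ran over 12508 to 33347 in Double against 31913 to 47745 in control skin. With the muscle level as a covariate, also chosen after seeing the data, the Per1 difference was -0.90 with an adjusted p of 0.296, in a fit that called 15 genes in all. In whole skin, fewer cells of a type and less RNA per cell cannot be told apart.

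Set against the single mutants, Per1 in Double skin was lower than in Shp2lof by 0.75 on the log2 scale and lower than in Mek1gof by 0.61, without a call in either comparison. The limma adjusted p was 0.0667 against Shp2lof, where the arrays did not overlap (6.54% of all genes) and 0.968% of all genes were called. It was 0.295 against Mek1gof, where 0.283% of all genes were called. At an unadjusted p below 0.05, Per1 was the 1 clock gene in each of these comparisons, against 12.8% and 9.85% of all genes. With slide as a block the comparison with Shp2lof reached an adjusted p of 0.0136, and with the Xist level as a covariate 0.0389.

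The single alleles left Per1 closer to control. The difference from control was 0.00 in Shp2lof (95% interval -0.40 to 0.40) and -0.14 in Mek1gof (-0.54 to 0.26), and the 2 single mutants differed from each other by -0.14 (Mek1gof minus Shp2lof, adjusted p = 0.841). The interaction, which asks whether the Double difference departs from the sum of the single ones, was -0.61 (95% interval -1.18 to -0.05, unadjusted p = 0.0355 in limma) and did not pass over all genes (adjusted p = 0.668; 0.088% of all genes called). A test for any difference among the 4 groups gave Per1 an adjusted p of 0.0521 in limma, where 4.42% of all genes were called and none of the clock genes was. No clock gene was called between Mek1gof and Shp2lof, against 2.76% of all genes.

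Per2, the close relative of Per1 in the same repressor complex, lay lower in Double skin without passing the test. It measured 8.35, 8.29, 7.69 and 7.70 in Double and 8.33, 8.64, 8.76 and 7.89 in control skin. The Double arrays of the second slide were again the lowest of all 16, and the groups overlapped. The difference was -0.40 (95% interval -0.82 to 0.01, limma adjusted p = 0.257), and the second kept Per2 probe gave -0.39 with an adjusted p of 0.233 in the fit of all probes. Against control Per2 was at -0.13 in Shp2lof and -0.12 in Mek1gof, whose arrays lay within 8.22 to 8.34.

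The cryptochromes, which bind the PER proteins and hold the activator pair in check, gave little signal. Cry2 was detected on 15 of 16 arrays, with 5.54 ± 0.110 in Shp2lof, 5.39 ± 0.506 in Mek1gof, 5.49 ± 0.366 in Double and 5.46 ± 0.305 in control skin (SD, n = 4 each). Its differences from control lay between -0.07 and 0.08, with 95% intervals as wide as -0.54 to 0.40 in Mek1gof. The 1 Cry1 probe was detected on 0 arrays (levels 4.26 to 4.36) and the 1 Per3 probe on 1 array, a control (4.43 to 5.10). For these 2 genes a difference between groups was not detectable with these probes.

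Nr1d2, the REV-ERB beta receptor that represses Arntl, had the second largest difference. It measured 6.83, 6.76, 7.15 and 7.56 in Double skin, 7.39, 7.17, 7.18 and 6.96 in Mek1gof, 7.43, 7.46, 7.40 and 7.02 in Shp2lof, and 7.51, 7.32, 7.98 and 7.75 in control skin. Its lowest 3 arrays were Double 1 and 2 and Mek1gof 4, its highest were control 3 and 4, and each mutant group overlapped control. The difference from control was -0.57 ± 0.18 in Double (SE, 95% interval -0.95 to -0.18), 1.48-fold lower, with an unadjusted p of 0.00619 and an adjusted p of 0.0870 in limma. It was -0.47 in Mek1gof (-0.85 to -0.08, adjusted p = 0.405) and -0.31 in Shp2lof (-0.70 to 0.07, adjusted p = 0.428). None of these passed with all arrays, but the call depended on Double 4, the highest of its group: without it the Double difference was -0.73 with an adjusted p of 0.0287, and without all 3 arrays of atypical sex-linked levels it was -0.73 with 0.0344. With the muscle level as a covariate, chosen after seeing the data, the Double difference was -0.12 with an adjusted p of 0.895. Within the first and the second slide the differences were -0.62 and -0.51 in Double, -0.14 and -0.80 in Mek1gof, and 0.03 and -0.66 in Shp2lof, so those of the single mutants came mostly from the second slide. The mutant groups differed from each other by at most 0.25 on this scale.

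Nr1d1, the REV-ERB alpha receptor with the same targets, was at -0.03 from control in Double skin (95% interval -0.42 to 0.36, limma adjusted p = 0.944). It averaged 6.18 ± 0.254 in Shp2lof, 6.05 ± 0.337 in Mek1gof, 6.28 ± 0.296 in Double and 6.31 ± 0.189 in control skin (SD, n = 4 each). The largest difference from control was -0.26, in Mek1gof (95% interval -0.65 to 0.13, limma adjusted p = 0.710), where 1 array, Mek1gof 3 at 5.56, was the lowest of all 16. A second kept probe, detected on 8 arrays, differed by 0.13 between Double and control skin (adjusted p = 0.744). Whether the Nr1d1 and Nr1d2 differences depart from each other was not tested.

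Dbp, a bZIP activator and usually among the strongest daily rhythms in mouse tissues, had no called difference. It measured 8.08, 7.80, 7.81 and 8.12 in Shp2lof, 8.04, 8.22, 7.80 and 8.18 in Mek1gof, 7.89, 7.46, 8.49 and 8.07 in Double, and 8.27, 7.78, 8.45 and 7.74 in control skin. Double held both the highest and the lowest array, and all groups overlapped. The differences from control were -0.11 in Shp2lof (95% interval -0.53 to 0.32), 0.00 in Mek1gof (-0.42 to 0.42) and -0.08 in Double (-0.50 to 0.34).

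**Figure D4:**
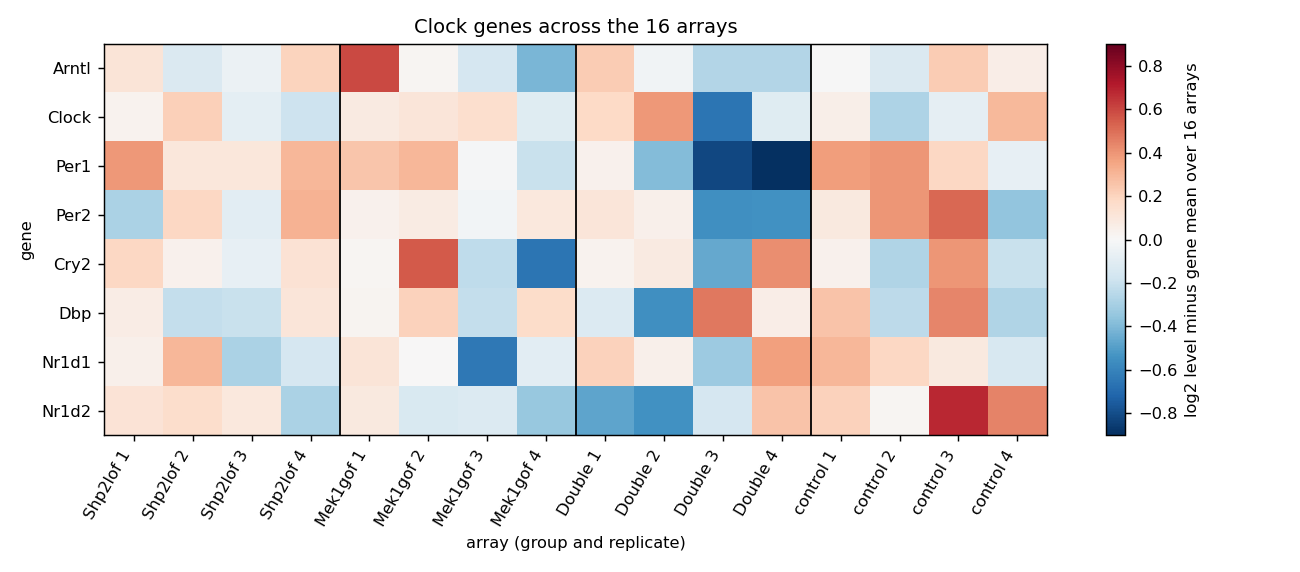
Log2 level of the 8 measured clock genes on each array minus that gene's mean over all 16 arrays, on a colour scale, with Shp2lof, Mek1gof and Double columns to the left of control. The lowest Per1 and Per2 values are those of Double 3 and 4, the lowest Nr1d2 values those of Double 1 and 2, and no group is uniformly high or low for the 8 genes.

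Slide was also looked at. Per1 was lower on the second slide by 0.37 on the log2 scale (95% interval -0.59 to -0.15) and Nr1d1 by 0.30, with limma adjusted p-values of 0.0869 and 0.184 and 0.938% of all genes called. No clock gene was called for slide. In the residual spread within groups, the clock genes ranged over SDs of 0.265 (Arntl) to 0.352 (Cry2), with a median of 0.281 against 0.242 for all genes. Arntl stood at the 60.9th percentile and Cry2 at the 84.4th, above the median gene. Among the 500 genes nearest in level, Nr1d1 stood at the 45.6th percentile, Nr1d2 at the 57.4th and Arntl at the 57.6th, and the other 5 members between the 71.4th and the percentile of Per1, 77.8.

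The relation of the other clock genes to Arntl was taken over the 16 arrays, which share groups and slides. Per1 had the largest correlation with Arntl (Pearson r = 0.53, permutation p = 0.0358, adjusted over the 7 genes 0.251; Spearman rho = 0.52, permutation p = 0.0416, adjusted 0.280). Its r was 0.08 within the first slide (exact permutation p = 0.810) and 0.70 within the second (exact permutation p = 0.0569), 8 arrays each, so the relation did not hold within both. Without the arrays farthest from the Arntl median, Mek1gof 1 and Mek1gof 4, r was 0.61 over 14 arrays, with a permutation p of 0.0205 and an adjusted p of 0.144.

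The remaining genes correlated less with Arntl. The r and rho were 0.44 and 0.45 for Cry2 (permutation p = 0.0909 and 0.0800), 0.31 and 0.31 for Per2 (0.243 and 0.247), and 0.30 and 0.30 for Clock (0.249 and 0.264). For the receptor genes and Dbp, they were 0.18 and 0.17 for Nr1d1 (permutation p = 0.501 and 0.535), 0.18 and 0.15 for Nr1d2 (0.508 and 0.577), and 0.02 and 0.04 for Dbp (0.941 and 0.875). None of the 7 relations passed after adjustment. Within the first slide (8 arrays) r ran from -0.39 for Per2 to 0.28 for Dbp, and within the second from -0.03 for Dbp to 0.70 for Per1. Without the same 2 arrays, r was 0.52 for Per2, 0.37 for Cry2, 0.32 for Clock, 0.11 for Nr1d1, 0.03 for Nr1d2 and 0.11 for Dbp.

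The genes whose levels over the 16 arrays were most like those of 3 clock genes are given as a description, with Pearson r, since arrays share group, slide and tissue makeup. Nearest to Arntl were Ifitm6 (0.89), Mtmr11 (0.86), Kif13a (0.83), Gpat3 (0.83) and Foxc2 (0.81), and most opposed were Mlana (-0.88), Dct (-0.87) and Me2 (-0.86). Mlana and Dct are melanocyte genes, and the summed signal of the 4 melanocyte markers ran over 1903 to 2483 in Shp2lof, 545 to 6843 in Mek1gof, 1171 to 9939 in Double and 1702 to 3337 in control skin. Over all groups these markers were higher on the second slide by a median of 1.09. All 4 had an unadjusted limma p below 0.05, a value for which the share of all genes was not taken. For slide 0 of them were called, against 0.938% of all genes. The groups differed in this: Dct went from 7.98 and 9.52 on the first slide to 11.54 and 11.59 on the second in Mek1gof. In Double it went from 9.09 and 10.67 to 12.09 and 11.78. It went from 9.80 and 10.54 to 9.94 and 9.32 in control skin, and from 10.08 and 9.82 to 10.01 and 9.70 in Shp2lof. Without Mek1gof 1 and 4, the genes nearest to Arntl stood at 0.58 (Foxc2) to 0.82 (Mtmr11), Mlana at -0.76, Dct at -0.79 and Me2 at -0.64. The part of pigment cells in the Arntl values was not tested.

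Nearest to Dbp were Fto (0.79), Kcnma1 (0.77), Taldo1 (0.77), Sh3bp5l (0.76) and Ptpre (0.73), and most opposed were Ankfy1 (-0.80), Smpdl3a (-0.79) and Birc2 (-0.79). Nearest to Nr1d1 were Adcy6 (0.85), Mfge8 (0.76), Gmip (0.74), Dlx1as (0.69) and Usp19 (0.68), and most opposed were Iapp (-0.80), Zfp667 (-0.77) and Nfkbie (-0.76). Leaving out the 2 arrays farthest from the clock gene's median changed these values: without Double 2 and 3 the genes nearest to Dbp stood at 0.49 (Ptpre) to 0.87 (Kcnma1) and the opposed ones at -0.69 to -0.64. Without Mek1gof 3 and Double 3 those nearest to Nr1d1 stood at 0.39 (Dlx1as) to 0.75 (Adcy6) and the opposed ones at -0.73 to -0.61. No other clock gene was among the nearest genes of Arntl, Dbp or Nr1d1.

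Of 20 further clock components looked up, 13 were measured, and Rora was the one with the clearest difference. Rora, the receptor that activates Arntl through the ROR elements at which Nr1d1 and Nr1d2 repress it, measured 8.69, 8.44, 8.25 and 8.41 in Double and 9.36, 9.56, 9.21 and 9.10 in control skin. All Double arrays lay below all control arrays, in a comparison where 12.5% of all genes did not overlap. It was lower by 0.86 on the log2 scale in Double (limma adjusted p = 0.00363) and by 0.63 in Shp2lof (adjusted p = 0.0209), and stood at -0.47 in Mek1gof (adjusted p = 0.177).

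Timeless, a partner of the replication fork that also binds clock proteins, was higher in Shp2lof by 0.60 (adjusted p = 0.0487), measuring 7.14, 7.07, 7.19 and 7.03 in Shp2lof and 6.34, 6.42, 6.39 and 6.87 in control skin. Its call was lost without any one of control 1, 2 or 3, with adjusted p-values of 0.121, 0.139 and 0.147, without any one Shp2lof array, with 0.0827 to 0.117, and without Mek1gof 2 or any one Double array, with 0.0526 to 0.0619. With the Xist level as a covariate its adjusted p was 0.0556. Of 11 measured cell cycle genes, 2 rose in Shp2lof (Plk1 by 0.97 and Prc1 by 0.85, adjusted p = 0.0445 and 0.0241), 0 passed in Mek1gof and 2 rose in Double skin (the replication genes Mcm2 by 0.90 and Mcm5 by 0.92, adjusted p = 0.0231 and 0.0221). Over the 13 clock components, 1 rose and 1 fell in Shp2lof, 0 passed in Mek1gof and 1 fell in Double, with medians of 0.14, 0.02 and 0.09. For all genes the shares called were 2.55%, 0.508% and 3.88% and the medians 0.02, 0.02 and 0.03, and the cell cycle list had medians of 0.62, 0.13 and 0.54.

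Among genes known as clock outputs, 10 of 16 were measured. Of these, 2 were called lower in Shp2lof, 1 in Mek1gof and 3 in Double, and 0 were called higher. Of all genes, 2.55%, 0.508% and 3.88% were called in either direction, and 2.04% were called lower in Double. Klf9, a transcription factor induced by glucocorticoids with a daily rhythm in skin, measured 10.89, 9.80, 9.70 and 9.86 in Double and 11.08, 11.84, 11.43 and 11.63 in control skin. The groups did not overlap, as for 12.5% of all genes. Klf9 was lower by 1.44 in Double (limma adjusted p = 0.00647) and by 1.02 in Shp2lof (adjusted p = 0.0405). Ppargc1a, a coactivator of metabolic genes that is also abundant in muscle, was lower by 1.37 in Double, 1.41 in Mek1gof and 1.12 in Shp2lof (adjusted p = 0.00363, 0.00714 and 0.0107). It was near background in the mutants, detected on 2 of 4 arrays in each mutant group and on 4 in control skin. Tsc22d3, the glucocorticoid-induced leucine zipper gene, was lower by 1.19 in Double skin (adjusted p = 0.0230), while its second probe was at -0.51 with an adjusted p of 0.227 in the fit of all probes. The list's medians were -0.25 in Shp2lof, -0.26 in Mek1gof and -0.42 in Double, against 0.02, 0.02 and 0.03 for all genes.

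Markers of other skin cells also moved in Shp2lof skin, where Rora, Klf9 and Ppargc1a fell. Of 6 fibroblast markers 2 were called lower there, where 2.55% of all genes were called in either direction. These were Col1a1 with a difference of -1.14 and Col1a2 with -1.07 (limma adjusted p = 0.0024 and 0.0286). The list's median was -0.69, with a summed signal of 16322 to 25828 in Shp2lof against 31871 to 41651 in control skin. Of 5 sebaceous gland markers 1 was called lower, Awat2 with a difference of -1.92 (adjusted p = 0.0178). That list's median was -0.63, with sums of 4709 to 8545 in Shp2lof against 7782 to 10887 in control skin. In Double skin, where Rora, Klf9 and Ppargc1a also fell, 3.88% of all genes were called in either direction. There 0 fibroblast markers were called, which with 6 genes is near that share. The 1 sebaceous marker called higher was Elovl3, at 8.59 to 9.39 in Double and 7.58 to 7.96 in control skin. The list medians there were -0.32 and -0.12. The part of these cells in the Shp2lof results was not tested.

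Because Per1 is itself a glucocorticoid target, a list of such genes was looked at beside it, and it shares Klf9 and Tsc22d3 with the output list. Of 15 measured, 4 fell in Double skin, where 2.04% of all genes were called lower: Klf9, Tsc22d3, Pdk4 (by 1.89 on the log2 scale, limma adjusted p = 0.0201), a kinase that slows glucose oxidation, and Ddit4 (by 0.86, adjusted p = 0.0308), an inhibitor of mTOR signalling. The list's median was -0.43 in Double, -0.22 in Mek1gof and -0.12 in Shp2lof, against 0.03, 0.02 and 0.02 for all genes. In Shp2lof Klf9 fell and Lcn2, an iron-binding protein of inflamed skin, rose by 1.54 (adjusted p = 0.0295), and in Mek1gof 0 passed. Other classic targets did not pass in Double skin: Fkbp5 was at -0.84 (adjusted p = 0.310), Sgk1 at -0.28 (0.415) and Dusp1 at -0.15 (0.762). With the muscle level as a covariate, the Double differences were -0.78 for Rora, -1.62 for Klf9, -1.08 for Ppargc1a, -0.79 for Tsc22d3, -1.16 for Pdk4 and -0.56 for Ddit4, and none was called (adjusted p from 0.125 to 0.575).

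Leaving out single arrays separated these calls. In Double skin, Rora, Klf9 and Ppargc1a were called whichever array was left out. Tsc22d3 was not called without any one of control 2 or 3 or Double 2, 3 or 4 (adjusted p from 0.0520 to 0.0808), Pdk4 without control 2 or 3 or Double 3 (0.0655 to 0.0774), Ddit4 without control 1, 2 or 3 or Double 2, 3 or 4 (0.0562 to 0.112), and Mcm2 and Mcm5 without control 2 or 3 or Double 2 or 3 (0.0602 to 0.0820). In Shp2lof, Rora was not called without control 1 or 2 or Shp2lof 2 or 4 (0.0525 to 0.0827), Klf9 without control 2, 3 or 4, Shp2lof 1, 2 or 4 or Mek1gof 3 (0.05 to 0.143), and Lcn2 without any one control array or Shp2lof 2 or 3 (0.0516 to 0.113). Plk1 was not called without any one control or Shp2lof array, Mek1gof 2 or Double 2 (0.0504 to 0.139), and Prc1 without control 2 or 3 or Shp2lof 1, 2 or 4 (0.0543 to 0.0827).

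Immediate early genes are induced by ERK signalling, and Per1 is often likened to them for its quick induction. Among 10 measured, none was called in any comparison with control. Of all genes 2.55% were called in Shp2lof, 0.508% in Mek1gof and 3.88% in Double, so no call among 10 genes is near these shares. At an unadjusted p below 0.05 there were 2 in Shp2lof, 0 in Mek1gof and 3 in Double, against 15.7%, 9.54% and 20.8% of all genes. Egr2, whose gene also drives the Cre, was closest in Double skin, at -0.72 (limma adjusted p = 0.0507), followed by Junb at -0.44 (adjusted p = 0.0710).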

How the data were processed

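Total RNA of dorsal skin was hybridized to Illumina bead arrays, 16 in all, from Trizol extracts cleaned on RNeasy columns, as biotinylated cRNA, per the labels. The authors' deposited table gives, per probe and array, the bead intensity (linear) and a detection p-value; GenomeStudio is named per the submitters' processing notes, its version not given in the sources used here. Array medians ran from 71.33 to 95.88 and no value was near 0 (lowest 36.6), so the deposited intensity had not been normalized. A second deposited table held the same values to within 0.05.

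The neqc function of limma 3.58.1 in R 4.3.3 corrected background and normalized quantiles (offset 16, which shrinks differences near background), and the log2 levels were computed here from that deposited intensity. Probes detected at p below 0.05 on at least 4 arrays (14631, 56.9%) with 1 gene symbol in the supplied table were kept (13765); the table named 1 gene for 23978 of all probes and no gene for 1719, with several for 0. The probe with the highest mean level stood for a gene. One model with 4 group means was fitted to all 16 arrays (12 residual and 5.74 prior degrees of freedom), and the named comparisons were contrasts of it. Levels of different probes were compared only to choose a gene's probe and to find the genes nearest in level, and were added in the marker sums.

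All 10 clock genes are named. Of each further list the members past the threshold against control are named, and otherwise those with the smallest p. A few uncalled genes beside these (Fkbp5, Sgk1 and Dusp1) were chosen after their values were seen. The members and lists were chosen with earlier results of these data known. For Arntl, Dbp and Nr1d1 the 5 genes of highest and 3 of lowest Pearson r are named.

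Data were simulated for Double against control over 10232 genes, with 50 genes changed at each size and independent normal noise. Log2 changes of 0.5, 0.75, 1 and 2 were recovered for 28%, 58%, 80% and 100% of genes, and 8 of 141 calls were false (5.67%). The simulation held no slide, sex or tissue differences, so these shares need not hold for the real arrays. The number of arrays limits the precision. Alternatives were other normalizations, offsets, filters and probe choices, slide and replicate blocks, array weights, single slides and leaving out each array. Figures used matplotlib 3.10.9 (Python 3.11.15).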

Additional observations from a re-analysis of the deposited data

Results flagged for a closer look

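Nr1d2 in Shp2lof skin had an array that stood apart: Shp2lof 4 was at 7.02, while the other 3 arrays lay between 7.40 and 7.46. Its gap to the nearest of them was 0.863 of the group's range, past Dixon's 95% critical value for 4 arrays. It was 1 of 32 groups of 4 arrays looked at (8 genes in 4 groups), and chance gives such a gap in about 1 of 20 groups. Shp2lof 4 is also one of the 3 arrays with atypical sex-linked levels.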

How the results depend on the processing

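Of 290 counts of called clock genes under alternatives, 261 were unchanged. Another 723 values belong to 22 results of Per1, Per2, Nr1d2 and called list genes, picked for a small p in these data. Of these values none reversed, 570 kept their side of the threshold, 144 lost the call and 9 gained it. Because of that choice the lack of reversals is no check of direction, and it does not cover the other clock genes. Among 2021 clock gene values that were uncalled in both settings, 135 had the other sign. The call of Per1 in Double against control was lost, leaving 0 clock genes, with signals shifted to a common median (adjusted p = 0.0534), with no detection filter (0.0581), with only the groups compared (0.0914), on slide 1 alone (0.126) and with the muscle covariate, which was chosen after seeing the data (0.296). Leaving out 1 array in turn gave 0 to 1. The 1 clock gene called was Nr1d2, not Per1, without Double 4 and without the 3 arrays of atypical sex-linked levels. The Per1 difference ran from -0.94 to -0.57. All genes called there numbered 397, but 257 with only the groups compared, 255 with unnormalized signals, 652 on slide 2 alone, 15 with the muscle covariate and 136 without control 2. Over all alternatives the genes called ran from 108 to 463 for Shp2lof against control (261 as reported), 13 to 193 for Mek1gof against control (52), 56 to 290 for Double against Shp2lof (99), 1 to 192 for Double against Mek1gof (29), 118 to 324 for Mek1gof against Shp2lof (282), 5 to 36 for the interaction (9), 247 to 691 for any group difference (452) and 0 to 1959 for slide (96).

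For Double against Shp2lof the count was 0, but 1 (Per1) with the Xist covariate (chosen after seeing the data), unnormalized signals, slide as a block, the replicate block, array weights and slide 2 alone, and 0 to 1 on leaving out an array. For any difference among groups it was 0, but 1 (Per1) with the Xist covariate, offset 50, unnormalized signals, the quantile-normalized second table, slide as a block, the replicate block, array weights and slide 2 alone, and 0 to 1 on leaving out an array. For slide it was 0, but 1 (Per1) with signals shifted to a common median. Of the 7 correlations with Arntl, 0 passed, but 4 did with unnormalized signals, which keep differences in brightness between arrays. The cause of these changes was not tested.

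Same-numbered arrays did not all deviate together: r ran from -0.229 to 0.384, over 0.1 in 9 of 24 pairs. Its median was 0.063, against -0.0075 for other numbers of the same slide and -0.0305 across slides. Of 16 arrays, 10 were closest to their own among the 4 numbers. The main fit took no pairs, and whether the numbers mark pairs was not settled. With the replicate block the adjusted p of Per1 was 0.0142 against control and 0.0218 against Shp2lof, both from limma. Probes of Cry1 and Per3, at background, limit those genes.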
